A study of Mus musculus with 13 samples.

Results

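A set of 10 genes of the glutathione S-transferase family (Gsta1, Gsta2, Gsta3, Gsta4, Gstp1, Gstp2, Gstm1, Gstm5, Gsto1 and Mgst1) were followed in mouse melanoma cells taken from the lungs of mice with a human APOE2 or APOE3 gene. They were chosen by name, as rows of the deposited table that carry these symbols in a mouse annotation, and all 10 were found among its 22656 genes. The choice was made with the APOE2 against APOE3 difference of these genes already known, so that difference is described here and not tested for them. All 10 averaged 10 normalised counts or more across the 13 libraries, the minimum for entering the fits. Gsta3 lay closest above that minimum, with a mean of 11.7, and Gstt1, a theta class transferase that is not among the 10, lay just below it, with 7.66.

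The cells were B16F10-TR-shApoe, a line derived from the mouse melanoma line B16F10 that carries a hairpin against its own Apoe. The line was the same in both groups, so every library came from cells with that hairpin, and 100000 cells were injected into the tail vein of each host. The hosts were knock-in mice that carry the human APOE2 allele (8 libraries) or the human APOE3 allele (5 libraries). Lungs were taken on day 15 and digested with collagenase, and cells low for the dead-cell dye TO-PRO-3 that lacked the leukocyte antigen CD45 and carried GFP were sorted. Strain, sex and age of the hosts are not given in the sources used here, nor whether 1 library is 1 animal, so p-values measure only the spread between these libraries, which may be technical. The sort was checked against marker genes. Each of 9 melanocyte lineage genes was measured. Per 1000000 normalised counts they summed to 36139 to 52014 in APOE2 and 26927 to 38474 in APOE3 libraries. Dct made the largest part, with mean normalised counts of 232520 in APOE2 and 150390 in APOE3. Tyrp1, Pmel, Mlana, Slc45a2 and Gpr143 also had higher means in APOE2. Mitf (8047 and 9216), Sox10 (4540 and 5225) and Tyr (2312 and 2336) had higher means in APOE3. None of the 9 passed the threshold for a genotype difference used below, so the sums are not read as a difference in purity. Lung markers were present at lower levels and are given beside the members they bear on. Recovered reads ran from 7284487 to 13039989 in APOE2 and from 7080308 to 8801867 in APOE3 libraries.

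Glutathione S-transferases join the tripeptide glutathione to reactive electrophiles, such as drugs, carcinogens and the aldehydes that form when lipids are oxidised, and the conjugates are then pumped out of the cell. The soluble enzymes work as dimers and are grouped by sequence into classes, among them alpha, mu, pi and omega, while the microsomal enzymes sit in membranes and form a separate family. Many of these genes are targets of the stress-responsive factor NRF2, which binds antioxidant response elements, and pi class enzymes have been studied for their part in the drug resistance of melanoma.

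Gstp1 and Gsta1 were the members with no overlap between the genotypes, and the bases before their transcription starts are shown for that reason, with Gstp2 as the near-copy of Gstp1. The stretches run from 250 to 51 bases before the RefSeq start on GRCm38.p6, read 5′ to 3′ on the gene's strand: chr19:4037963-4038162 (minus strand) for Gstp1, chr19:4042272-4042471 (minus strand) for Gstp2 and chr9:78230419-78230618 (plus strand) for Gsta1. Capitals mark the letters TGANTCAGC, an AP-1 site followed by GC.
Gstp1: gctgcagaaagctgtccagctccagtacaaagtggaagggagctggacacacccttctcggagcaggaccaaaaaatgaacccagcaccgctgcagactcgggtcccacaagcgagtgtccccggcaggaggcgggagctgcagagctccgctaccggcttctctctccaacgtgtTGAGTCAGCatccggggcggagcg
Gstp2: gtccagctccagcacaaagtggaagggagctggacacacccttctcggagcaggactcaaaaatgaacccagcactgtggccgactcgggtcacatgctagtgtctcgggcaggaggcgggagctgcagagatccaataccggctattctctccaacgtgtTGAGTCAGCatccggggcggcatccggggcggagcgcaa
Gsta1: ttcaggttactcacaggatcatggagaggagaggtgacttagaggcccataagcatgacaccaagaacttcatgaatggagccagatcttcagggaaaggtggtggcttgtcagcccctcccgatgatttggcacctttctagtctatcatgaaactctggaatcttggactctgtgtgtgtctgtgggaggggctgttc

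RefSeq windows of 250 bases before the start matched 9 of the 10 members. Both strands were searched for 4 motifs, and a match is a description of letters, not of binding. TGANTCA, the AP-1 site of Fos and Jun proteins, stood in 3 members (Gstp1, Gstp2 and Gstm5) and in 6.7% of 32851 windows of that length. In Gstp1 it began 74 bases and in Gstp2 89 bases before the start, and in both it was followed by GC. The windows of Gstp1 and Gstp2 were 88.5% identical over 235 aligned bases, so their motif matches are not independent. That longer form, TGANTCAGC, which overlaps the shorter one and was added after these sequences had been seen, stood in 1.0% of windows. TGACNNNGC, a core of the antioxidant response element, stood in Gsta3, Gstm5 and Mgst1 and in 10.2% of windows. The TGAGTCAGC of Gstp1 and Gstp2 differs from those letters only in a G where they have C. Forms of the element with G at that place were not searched for, so the 10.2% does not cover them. GGGCGG, the GC box, stood in 5 members (Gstm5, Gsto1, Gstp1, Gstp2 and Mgst1) and in 32.7% of windows. None of the 4 motifs was found in the windows of Gsta1, Gsta2 and Gstm1.

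Several members are near-copies of each other, which limits how their reads could be assigned. The libraries read the 3′ end of transcripts, so the last 300 bases of each gene's longest protein-coding transcript were taken. Windows of 50 bases from them were sought in all annotated transcripts of other genes. For a gene with no coding transcript its longest was used, and the ends of a gene's other transcripts were not taken. For Gstp1 (chr19:4035407-4037985, GRCm38, minus strand) all 251 windows were also in Gstp2 (chr19:4040285-4046023, minus strand), and 185 of them also in the processed pseudogene Gstp-ps. For Gsta1 (chr9:78230656-78242684, plus strand) 206 windows, or 82.1%, were shared, 200 of them with Gm3776 (chr9:78257129-78269166, plus strand), whose transcript is 99.5% identical to it. Gsta2 (chr9:78331018-78355788, minus strand) shared 40.6% of windows, most with Gm10639. No window was shared for Gsta3, Gsta4, Gstm1, Gstm5, Gsto1 and Mgst1. How reads matching several places were counted is not given in the sources used here, so single values of the pi genes and of Gsta1, Gsta2, Gm3776 and Gm10639 are uncertain, and their sums are given too.

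Values below are normalised counts, which are reads divided by a size factor of the library. Tags at the 3′ end are not divided by transcript length. Levels are compared within a gene, and only near-copies with like transcript ends are set against each other, as shares of their summed counts. Sums over several genes are compared only between the groups. Fold changes are APOE2 minus APOE3 differences of log2(normalised count + 1) with the standard error of a limma fit across 12403 genes.

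Gstp1 encodes the main pi class enzyme. Its APOE2 libraries held 928 at the lowest, 1103 at the median and 1749 at the highest, and the APOE3 libraries held 851, 420, 578, 567 and 561. The lowest APOE2 library was above the highest APOE3 library, with APOE2 replicates 1 and 2 the highest and APOE3 replicate 1 the nearest to the APOE2 group. The means were 1187 ± 288 (SD, n = 8) and 595 ± 157 (SD, n = 5), a log2 fold change of 1.00 ± 0.16, which stayed between 0.88 and 1.14 when any 1 library was left out. Gstp2, its neighbour on chromosome 19, held 41.8, 80.6 and 112 as the lowest, median and highest APOE2 values, against 80.1, 18.1, 56.2, 65.0 and 47.4 in the APOE3 libraries. These groups overlapped, with APOE2 replicates 4 and 6 the lowest of their group and APOE3 replicate 2 the lowest of all. The log2 fold change of Gstp2 was 0.61 ± 0.36, and 0.27 without APOE3 replicate 2. Of the summed Gstp1 and Gstp2 counts, Gstp2 made up 6.24% ± 2.05 (SD, n = 8) with APOE2 hosts and 7.93% ± 2.31 (SD, n = 5) with APOE3 hosts. With Gstp-ps added to both, the pi sum ran from 1003 to 1866 with APOE2 hosts and from 462 to 936 with APOE3 hosts, again without overlap, at a log2 fold change of 0.97 ± 0.16.

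**Figure D1:**
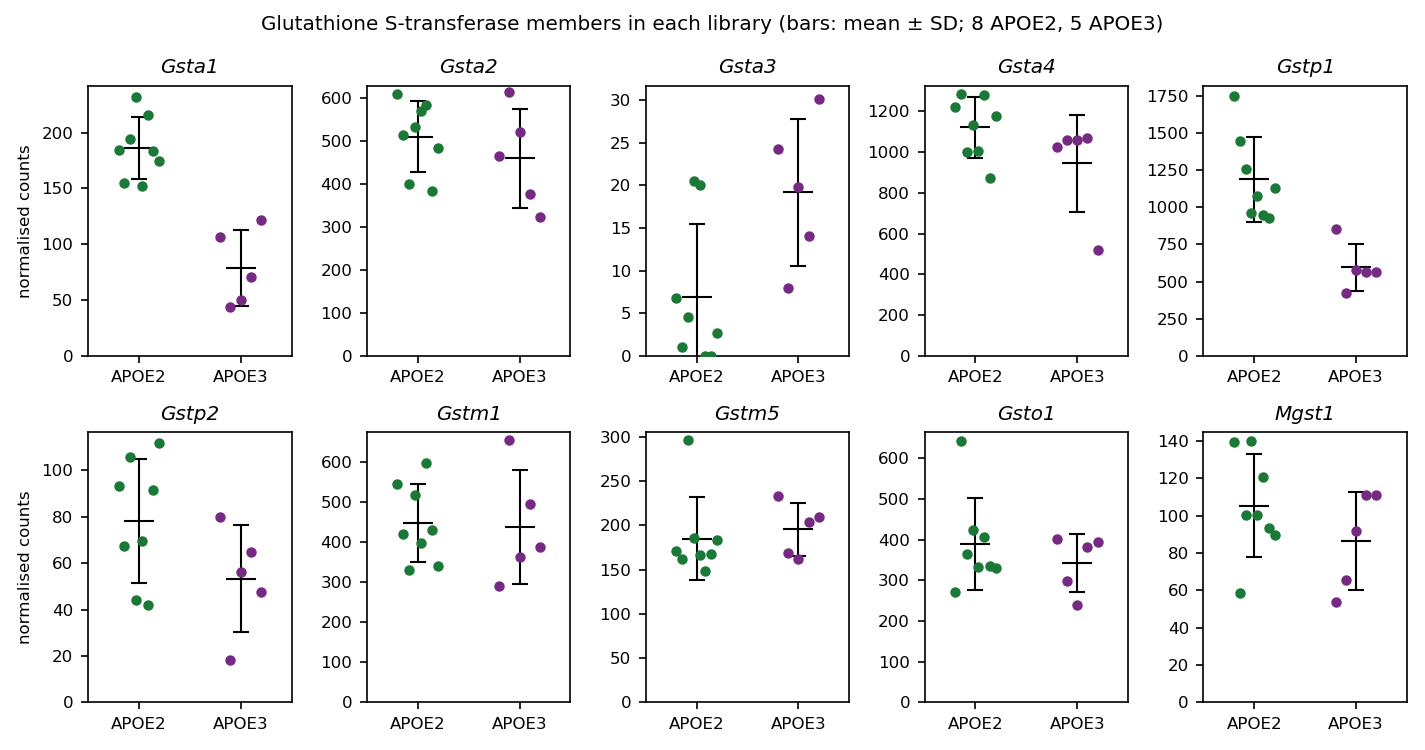
Normalised counts (vertical axes, each starting at 0) of the 10 members in the 8 APOE2 and 5 APOE3 libraries. Points are libraries and bars are mean ± SD, cut off at 0 for Gsta3. The points of the groups do not overlap for Gsta1 and Gstp1 and overlap for the other 8 members.

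Alpha class enzymes conjugate glutathione and also reduce lipid hydroperoxides. Gsta1 held 152, 184 and 232 as the lowest, median and highest APOE2 values and 106, 44.1, 49.95, 70.6 and 121 in the APOE3 libraries. The groups did not overlap, and APOE3 replicates 1 and 5 were nearest to it. The group means were 186 ± 27.7 (SD, n = 8) and 78.5 ± 34.2 (SD, n = 5), and the log2 fold change of 1.33 ± 0.25 stayed between 1.16 and 1.52 without any 1 library. Its near-copy Gm3776, which is not among the 10, overlapped between groups, with means of 172 ± 55.8 and 106 ± 50.2, a log2 fold change of 0.76 ± 0.28 and an adjusted p of 0.220 (limma). Summed, Gsta1 and Gm3776 ran from 277 to 477 in APOE2 and from 93.8 to 251 in APOE3 libraries, without overlap, at a log2 fold change of 1.01 ± 0.20.

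Gsta2 held 385, 524 and 609 as the lowest, median and highest APOE2 values, and 466, 614, 521, 377 and 323 in the APOE3 libraries. The highest and the lowest of the 13 libraries were both APOE3, and the log2 fold change was 0.17 ± 0.16. Gm10639 shared 77 of its 251 end windows with Gsta2 and 19 with Gsta1, and its transcript is 94.6% and 94.5% identical to theirs. Gsta2 is closer to Gsta1, at 97.2%. Gm10639 had means of 297 in APOE2 and 300.3 in APOE3 libraries. The sum of Gsta2 and Gm10639 had a log2 fold change of 0.11 ± 0.15. With all 4 of these alpha genes summed, 7 of 8 APOE2 libraries lay above every APOE3 library, with a range of 908 to 1341 against 693 to 1082 and a log2 fold change of 0.31 ± 0.12. Within the Gsta1 and Gm3776 pair, Gsta1 was 52.8% ± 8.31 of the counts in APOE2 and 43.2% ± 14.3 in APOE3 libraries (SD, n = 8 and n = 5).

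**Figure D2:**
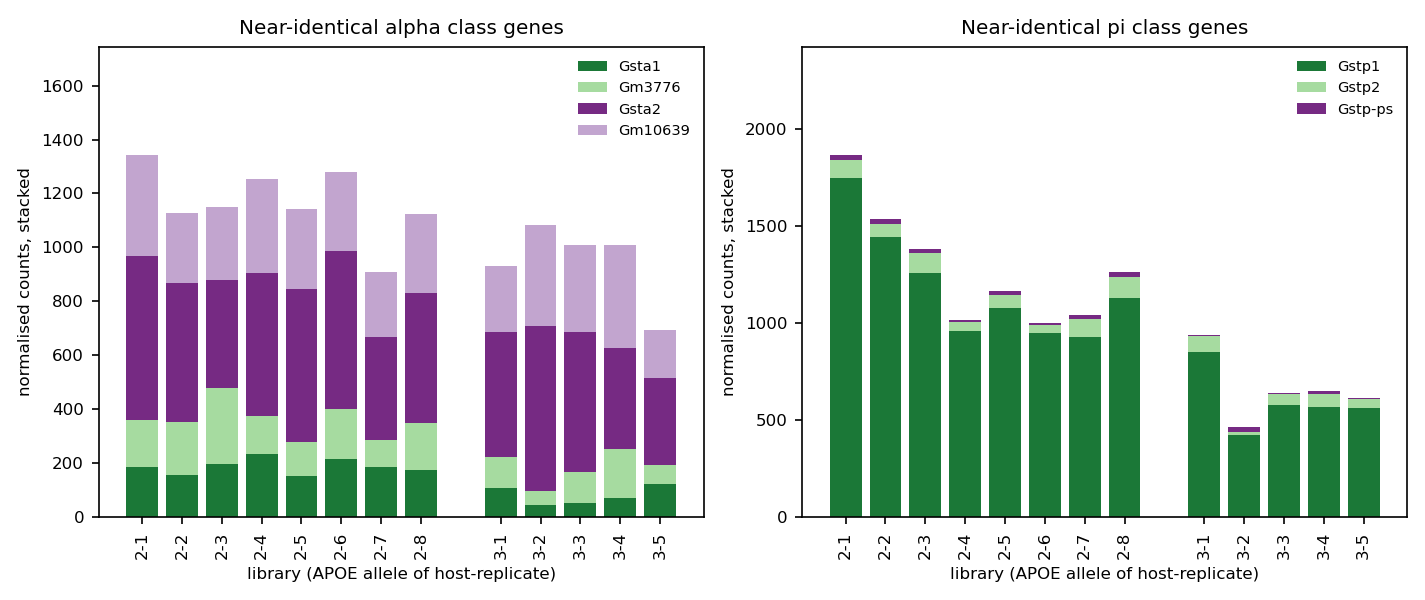
Stacked normalised counts (vertical axes, from 0) of near-identical genes in each library, alpha class on the left and pi class on the right. Libraries are named by the APOE allele of the host and the replicate. The pi stacks reach 1003 to 1866 in APOE2 and 462 to 936 in APOE3 libraries, and Gsta1 plus Gm3776 reach 277 to 477 and 93.8 to 251.

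Gsta4, which acts on hydroxynonenal and related aldehydes, held 870, 1153 and 1285 as the lowest, median and highest APOE2 values. The APOE3 libraries held 1022, 1058, 1056, 1067 and 521. Apart from APOE3 replicate 5, all APOE3 values lay inside the APOE2 range, and the log2 fold change of 0.28 ± 0.16 was 0.081 without that library. Gsta3, known in mice for conjugating the epoxide of aflatoxin, was at the edge of detection, with 0 to 26 reads in a library. Its APOE2 libraries held 0, 3.67 and 20.5 as the lowest, median and highest values, and its APOE3 libraries 24.2, 7.91, 19.8, 14.1 and 30.1. In 6 of 8 APOE2 libraries it was below every APOE3 library, and the other two lay among them. Gsta3 differed by -2.07 ± 0.91 on the log2 scale, opposite in sign to the other 3 alpha members, with a range of -2.39 to -1.76 without any 1 library. The size depends on the scale and the tool: it was -1.23 with a pseudocount of 5, and on recovered reads -1.45 in edgeR and -1.47 in DESeq2.

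Gstm1 and Gstm5 belong to the mu class. Gstm1 held 330.0, 424 and 596 as the lowest, median and highest APOE2 values, against 289.7, 654, 363, 495 and 386 in the APOE3 libraries. The extremes were both APOE3, the log2 fold change was 0.058 ± 0.18, and its sign changed without APOE3 replicate 1 (-0.077) or without APOE2 replicate 6 (-0.0060). Gstm5 held 148, 169 and 297 as the lowest, median and highest APOE2 values and 233, 168, 162, 204 and 209 in the APOE3 libraries, with a log2 fold change of -0.096 ± 0.19. Only APOE2 replicate 3 lay above the APOE3 range. Exons of Gstm5 overlap those of 4933431E20Rik on the opposite strand, and whether counting used strand is not given in the sources used here.

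Gsto1, the omega class enzyme, acts mainly as a thioltransferase and dehydroascorbate reductase. It held 271, 350.3 and 643 as the lowest, median and highest APOE2 values, and 402, 297, 240.4, 381 and 393 in the APOE3 libraries. The groups overlapped, APOE2 replicate 2 stood above all others, and the log2 fold change was 0.16 ± 0.18. Mgst1, the microsomal enzyme, held 58.5, 100.3 and 140.2 as the lowest, median and highest APOE2 values and 53.7, 65.5, 91.6, 111 and 111 in the APOE3 libraries. Its groups also overlapped, with a log2 fold change of 0.29 ± 0.27.

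Across the 10 members, 8 had a positive and 2 (Gsta3 and Gstm5) a negative log2 fold change, with a median of 0.23, beside 50.1% positive and a median of 0.00037 over all genes tested. Summed over the 10, the APOE2 libraries averaged 4214 ± 479 (SD, n = 8) and the APOE3 libraries 3214 ± 317 (SD, n = 5). These sums overlapped, at 3484 to 4988 and 2704 to 3528. They include Gstp1, whose means were 1187 and 595, so they do not describe the family as a whole. At an adjusted p of 0.05, 51 genes of the table were higher in APOE2, which is 0.411% of those tested, and 47 were lower, or 0.379%. Gsta1 and Gstp1 were among those higher, and none of the 10 among those lower. Complete separation of the groups with APOE2 on top was seen for 59 genes, or 0.476%, Gsta1 and Gstp1 included, and with APOE2 below for 63 genes, or 0.508%, with no member. The edgeR fit also called Gsta1 and Gstp1 and no other member, beside 1.11% of genes, and so did DESeq2, beside 2.51%. As the members were picked from this same contrast, nothing is read from those shares.

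**Figure D3:**
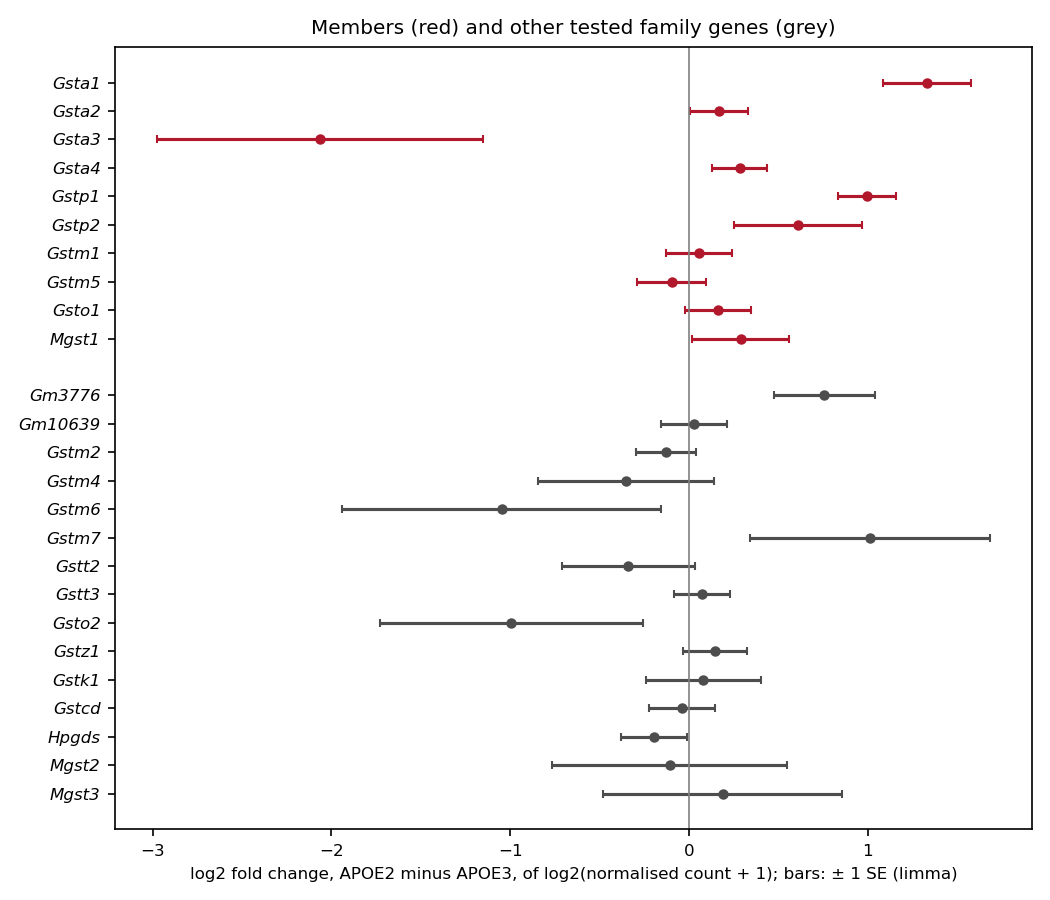
Log2 fold changes, APOE2 minus APOE3, of the 10 members (red) and the 15 other family genes tested (grey), with bars of ± 1 SE from limma. Gsta1 and Gstp1 are at 1.33 and 1.00, and Gsta3 is at -2.07 with the widest bar among the 10 members.

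Of 22 other transferase genes listed, 19 were in the table and 15 were tested. None passed the adjusted threshold in either direction, 1 had an unadjusted p under 0.05 (Gm3776), and the median log2 fold change was -0.041. The next by p were Gstm7, a mu class gene at 20.1 ± 9.34 in APOE2 and 11.7 ± 12.3 in APOE3 libraries (adjusted p = 0.514, limma), and Gsto2, an omega class gene at 21.9 ± 14.1 and 40.0 ± 30.9 (adjusted p = 0.570, limma). With the 10 members and the pseudogene Gstp-ps added to those 19, the 30 genes summed to 7254 in APOE2 and 6328 in APOE3 libraries.

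The rest of the glutathione pathway was read from 4 further lists. Together with the other transferases they held 97 genes, of which 82 were tested and 0 passed the adjusted threshold in limma. At an unadjusted p under 0.05 there were 9 higher and 6 lower, or 18.3% of the 82 beside 14.2% of all genes tested. The edgeR fit on recovered reads also gave 0, and DESeq2 gave 2, both lower in APOE2: Glrx3, an iron-sulphur glutaredoxin (log2 fold change -0.41, adjusted p = 0.0392), and Gpx3, the secreted glutathione peroxidase (-1.94, adjusted p = 0.0470). Gpx3 was at 4.60 to 25.9 in APOE2 and 8.43 to 143 in APOE3 libraries, which overlap. In limma its log2 fold change was -1.30 ± 0.64 (adjusted p = 0.357), turning to 0.75 ± 1.00 with the mean of the alveolar type 2 cell markers as a covariate. That covariate largely follows genotype, as given with the lung markers below.

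Genes that make and recycle glutathione had 15 tested, none at an unadjusted p under 0.05 and a median of -0.084. The smallest p values there belonged to Cndp2, a dipeptidase (log2 fold change 0.46), Chac2, which degrades glutathione (0.89), and Ggt7 (-0.20), with adjusted p from 0.532 to 0.606 (limma). Among 24 peroxidases, peroxiredoxins and thioredoxin-type enzymes, 7 were higher and 3 lower at an unadjusted p under 0.05, with a median of -0.0019. That is 41.7% of them, beside 14.2% of all genes tested. As the lists were written with earlier results of these data known, nothing is read from that share. Glrx3 was at 1772 ± 140 in APOE2 and 2353 ± 531 in APOE3 libraries (log2 fold change -0.39 ± 0.12, adjusted p = 0.127, limma). Prdx6, a peroxiredoxin that uses glutathione, was at 1083 ± 153 and 1388 ± 186 (-0.36 ± 0.12), and Gpx1, the cytosolic glutathione peroxidase, at 4747 ± 451 and 3870 ± 364 (0.29 ± 0.10), both with an adjusted p of 0.177 (limma).

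Of 8 tested genes that export or process conjugates, none had an unadjusted p under 0.05. Acy1, an aminoacylase, was at a log2 fold change of -0.32 and Nat8, an acetyltransferase of cysteine conjugates, at -0.23, with adjusted p of 0.663 and 0.804 (limma). All 25 listed genes of the NRF2 pathway were tested, with 1 higher and 3 lower at an unadjusted p under 0.05 and a median of -0.085. Ftl1, the ferritin light chain, was at 1379 ± 432 in APOE2 and 879 ± 314 in APOE3 libraries, a log2 fold change of 0.69 ± 0.22 with an adjusted p of 0.143 (limma). G6pdx, which supplies NADPH, and Mafk, a small Maf partner of NRF2, were at -0.47 and -0.52, with adjusted p of 0.254 and 0.256 (limma).

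Markers of lung cells were read in the same libraries. The summed level of 9 alveolar type 2 cell markers ran from 112 to 500.2 per 1000000 normalised counts with APOE2 hosts and from 447 to 2589.6 with APOE3 hosts, and 7 of the 9 were among the genes called lower in APOE2. In bulk samples, fewer cells of a type and less RNA per cell cannot be told apart. Club cell markers summed to 3.23 to 218 in APOE2 and 13.95 to 99.6 in APOE3 libraries, with 1 of 6 tested, Cbr2, called lower. APOE2 replicates 2 and 1 had the highest club sums of their group, 218 and 74.8, and the other 6 lay between 3.23 and 19.9. None of these markers in the table was at 0 in every library. Scgb3a1, Scgb3a2 and Bpifa1 were at 0 in all 5 APOE3 libraries, and in APOE2 had medians of 0.46, 0 and 0 with up to 442, 179 and 129. Scgb1a1 was below every APOE3 library in 6 of 8 APOE2 libraries (medians 2.50 and 32.4), although its highest APOE2 value was 1065. Means in APOE2 and APOE3 were 25.1 and 79.9 for Hp, 73.8 and 402 for Cbr2, and 8.40 and 4.03 for Cyp2f2. The 18 leukocyte markers summed to 60.1 to 313 in APOE2 and 261 to 1501 in APOE3 libraries, most of it from Lyz2, a lysozyme gene that alveolar type 2 cells also express. Without Lyz2, a check added after the data had been seen, the other 17 summed to 30.9 to 98.2 (mean 50.3) and 53.2 to 76.1 (mean 67.0). In 6 of 8 APOE2 libraries that sum lay below every APOE3 library. Of these 17 markers, 6 had a higher mean in APOE2, and Cd74 was called lower, at 32.2 ± 16.2 and 116 ± 30.3 without overlap. Endothelial markers summed to 88.3 to 137 and 131.5 to 272.

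With the mean of the alveolar type 2 markers as a covariate, the log2 fold change was 0.84 ± 0.29 for Gstp1 and 1.25 ± 0.44 for Gsta1. Neither was then called, nor was any other gene of the table, with 727 at an unadjusted p under 0.05. The covariate ran from 5.86 to 7.75 in APOE2 and from 7.68 to 9.76 in APOE3 libraries, so it largely follows genotype. This fit can hardly tell genotype and marker level apart, and without the covariate the standard errors were 0.16 for Gstp1 and 0.25 for Gsta1. Without APOE2 replicates 1 and 2 and with no covariate, the log2 fold change was 0.85 ± 0.16 for Gstp1 and 1.38 ± 0.28 for Gsta1. That check was added after the data had been seen.

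Within the 8 APOE2 libraries, where genotype is constant, the members were set against both marker lists, 20 relations in all, by Pearson correlation with exact permutation tests over all 40320 pairings. None passed an adjusted p of 0.05, the smallest adjusted p being 0.285, and 3 had an unadjusted p under 0.05. Gstm1 and the alveolar type 2 markers had r = 0.75 (exact permutation p = 0.0384) and Spearman's rho 0.81 (exact permutation p = 0.0218), with r = 0.63 after the 2 libraries farthest from the marker median were left out. Gstm5 had r = -0.65 with them (exact permutation p = 0.0428) and -0.52 without those 2 libraries. For Gstp1 and the club markers r was 0.76 (exact permutation p = 0.0375) and rho 0.14 (p = 0.752). That relation rests on APOE2 replicates 1 and 2, since r was -0.86 without them.

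**Figure D4:**
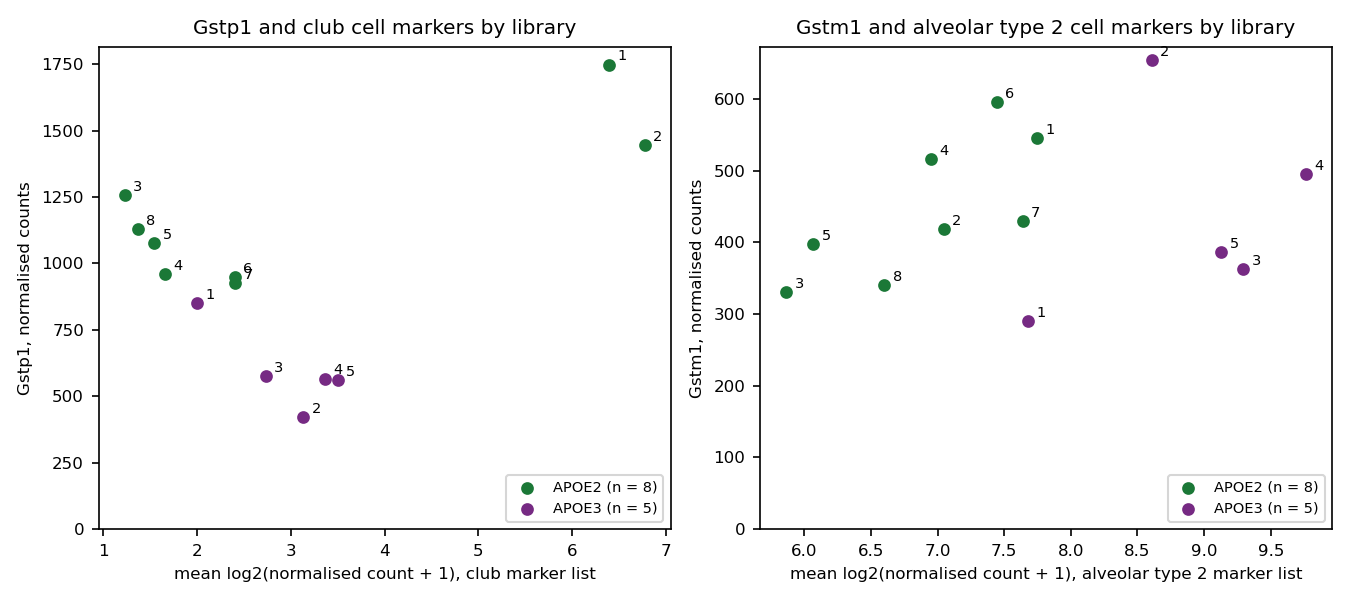
Left, Gstp1 normalised counts against the mean log2(normalised count + 1) of the club cell markers. Right, Gstm1 against that of the alveolar type 2 markers. Points are libraries, green for APOE2 (n = 8) and purple for APOE3 (n = 5), with replicate numbers beside them, and APOE2 replicates 1 and 2 stand apart on the club axis.

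The members were also set against each other within the APOE2 libraries. Of 45 pairs, 22 had a positive r, with a median of -0.0018 and a range of -0.72 to 0.71. No pair passed an adjusted p of 0.05 (smallest 0.718), and 3 had an unadjusted p under 0.05 in exact permutation tests. Gsta1 and Mgst1 had r = 0.71 (exact permutation p = 0.0445, n = 8) and 0.79 without the 2 farthest libraries. Gsta2 and Gsta4 also had r = 0.71 (exact permutation p = 0.0477, n = 8), which fell to -0.032 without APOE2 replicates 3 and 7. Gstp2 and Gstm1 had r = -0.72 (exact permutation p = 0.0497, n = 8) and -0.34 without APOE2 replicates 4 and 6. The near-copies Gstp1 and Gstp2 had r = 0.44 (exact permutation p = 0.269, n = 8).

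The genes most like Gstp1 and Gsta1 were sought by Pearson r over all 13 libraries after the mean of each genotype had been taken out, among 9680 genes with a mean of at least 50. For Gstp1 they were Sec62 (r = 0.88), Xpa (0.87), Ftl1 (0.87), Fundc1 (0.86) and Mrpl20 (0.85), and Gstp2 had 0.64. For Gsta1 they were B4galt5 (0.90), Nadk (0.89), 2810013P06Rik (0.88), Srp68 (0.87) and Apex1 (0.86), and the members nearest to it were Gstm5 at 0.45 and Gsto1 at 0.39, while Gsta2 had -0.54. These are the highest of many correlations over libraries that share depth and composition, and are given as a description.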

How the data were processed

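RNA of sorted melanoma cells was read by QuantSeq 3′ mRNA-Seq FWD, per the labels' protocols, in 8 APOE2 and 5 APOE3 libraries. Per the submitters' processing notes, STAR 2.6.0, featureCounts and DESeq2 1.28.1 were used with the build mm10; the handling of strand and of reads matching several places is not given in the sources used here. The deposited values are normalised counts, a non-negative signal for each gene and library in 1 table. Every nonzero value became a whole number of reads, within 0.01 reads, when divided by the step of its library, and median-of-ratios factors recomputed from those reads were the same as the authors'. Reads carry no molecular identifiers, so depth gives counting error only.

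Symbols, coordinates and transcripts came from GENCODE M21 (GRCm38), which named 22649 of the 22656 genes. Promoter windows came from RefSeq (GRCm38.p6).

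Genotypes were taken from the labels and compared with limma 3.58.1 in R 4.3.3, with a trend, on log2(value + 1) for the 12403 genes with a mean of at least 10, with Benjamini-Hochberg adjustment and a threshold of 0.05. Fold changes of low genes depend on the pseudocount and, where libraries are at or near 0, can be smaller or larger than the ratio of means. Alternatives were edgeR 4.0.16 and DESeq2 1.42.0 on recovered reads, other pseudocounts, filters and scalings, a replicate block, a marker covariate, summed near-copies and leaving out libraries. Scripts were tested on simulated data.

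The members and lists were chosen with earlier results of these data known. Named were all members, the genes of each pathway list past the threshold or, with fewer than 3, those of smallest p up to 3, and the 5 genes most like Gstp1 and Gsta1. Marker lists were read by summed level. Genes named from DESeq2 alone or as library examples were picked after their values were seen. In the list of conjugate export, 1 gene that this rule names is not reported here.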

Additional observations from a re-analysis of the deposited data

Results flagged for a closer look

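The 10 members and the 15 pathway genes with the smallest p in their lists were screened in both genotypes for 1 library standing apart from the rest of its group, 50 screens in all. Chance gives about 1 in 20, or 2.5 screens, and 3 were found. For Gsta4, APOE3 replicate 5 was at 521 normalised counts while the nearest APOE3 library was at 1022, a gap of 0.916 of the group's range. Gstm5 was at 297 in APOE2 replicate 3, with the nearest library at 185 and a gap of 0.749 of the range, and its log2 fold change of -0.096 was -0.20 without that library. Gsto1 was at 643 in APOE2 replicate 2, the library with the highest club marker sum, with the nearest at 424 and a gap of 0.59 of the range, and its log2 fold change of 0.16 was 0.052 without it. Over the 8 APOE2 libraries, Gsto1 and the club markers had r = 0.30 (exact permutation p = 0.463). The part of lung cells in these single values was not tested.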

How the results depend on the processing

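Gstp1 stayed past the threshold without any 1 of the 13 libraries and in 12 of 14 other settings (not without the trend or with the marker covariate). Gsta1 stayed in 12 of 13 fits with 1 library left out (not without APOE3 replicate 3) and in 9 of 13 other settings (not without the filter, without the trend, with the replicate block or with the covariate). Both kept their direction in these fits. As they were chosen from this contrast, this describes the fits and supports nothing. Of 259 member values under alternatives, 255 moved by less than 1 SD between replicates. The other 4 came from the covariate, which largely follows genotype: Gsta3 -3.56, Gstm1 0.62, Gstm5 -0.51 and Mgst1 0.88. The sign of Gstm1 changed in 2 fits, without APOE2 replicate 6 (-0.0060) and without APOE3 replicate 1 (-0.077).

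Counts over the table moved more than the members. Beside 51 genes higher and 47 lower, there were 5 and 4 without the filter, 0 and 0 without the trend (1599 genes at an unadjusted p under 0.05), 0 and 0 with the covariate (727, beside 1763 in limma as reported), 153 and 158 in DESeq2, and 7 and 13 without APOE2 replicates 1 and 2. Lower genes numbered 73 with a pseudocount of 5 and 77 in edgeR. Scaling to equal totals gave 38 higher and 54 lower. Leaving out 1 library gave 5 (without APOE3 replicate 3) to 131 (without APOE3 replicate 1) higher and 4 to 97 lower. DESeq2 called 2 of the other transferase and pathway genes, against 0. The causes were not tested.

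Same-numbered libraries did not deviate together (r from -0.063 to 0.014), and no APOE3 library correlated best with its own number. These correlations showed no pairing by number. The highest r of an APOE3 library with any APOE2 library was only 0.036 to 0.118, so a weak shared batch could be missed. The replicate block gave 17 higher and 26 lower, and -1.16 for Gsta3. Depth limits Gsta3 most, at 0 to 26 reads a library.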
